A study of Sus scrofa with 4 samples.

Results

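The 10 genes described here encode proteins of the elastic fibre and its microfibrils, namely ELN, FBN1, FBN2, MFAP2, MFAP4, MFAP5, FBLN1, FBLN2, FBLN5 and EFEMP2. They were chosen by name from the 16192 mRNAs listed, among 31567 features in all, and each of the 10 names was found once. Of the 10 genes, 7 were reliably expressed, that is, 3 or 4 of the 4 libraries showed an FPKM of 1 or more, as for 9191 of the 16192 mRNAs. FPKM scales the fragments counted on a gene by the length of its transcript and by the size of the library, so that levels of different genes can be compared.

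Preadipocytes were isolated with collagenase from the subcutaneous fat of 3 male Chinese Erhualian piglets (5 days old) and were grown to confluence. Cells at D0 were confluent and not yet induced, cells at D2 had spent 2 days with dexamethasone, 3-isobutyl-1-methylxanthine and insulin, and cells at D4 had then spent 2 days with insulin alone. Cells at D8 had been returned to growth medium without added hormones after D4. RNA of the 3 piglets was pooled in equal amounts into 1 strand-specific library for each of D0, D2, D4 and D8, without ribosomal RNA. There are no replicates, no test between days was possible, and day, medium and library cannot be told apart. The intervals below are 95% intervals of the counted fragments, and they leave out the variation between piglets and between cultures.

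An elastic fibre has a core of cross-linked elastin, which is secreted as tropoelastin and laid down on a scaffold of fibrillin microfibrils. Microfibril-associated glycoproteins and fibulins sit on or near the microfibrils and guide tropoelastin to them, and lysyl oxidases then join the elastin chains. Microfibrils also occur without elastin, and they hold latent TGF-beta and BMP growth factors in the matrix of many mesenchymal tissues, including the stroma of fat.

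The fragments counted in a library ranged from 54128151 at D8 to 75387428 at D0, which makes 1 fragment on a transcript of 1 kilobase worth 0.0133 to 0.0185 FPKM. The mesenchymal markers and most of the adipocyte markers were detected. All 8 mesenchymal markers (among them PDGFRA, THY1 and COL1A1) were at an FPKM of at least 1 in all 4 libraries, and the summed level of 8 adipocyte markers was 122 FPKM at D0 and then 484, 1715 and 2066 at D2, D4 and D8. From D4 to D8 this sum followed FABP4 (853 and 1557 FPKM) and CIDEC (5.01 and 54.6 FPKM), whereas ADIPOQ, PLIN1, LPL, CEBPA and PPARG had lower values at D8 than at D4. LEP, the remaining adipocyte marker, did not rise with the sum. It was under 1 FPKM in every library, at 0.291 FPKM at D0 and then 0.156, 0.0269 and 0.314 at D2, D4 and D8. Of 5 endothelial markers, PECAM1 alone reached an FPKM of 1 (1.14 to 2.56), and CDH5, VWF, KDR and TEK were at or near 0. Leukocyte markers summed to between 0.667 and 2.65 FPKM, with CD163 reaching 1.42 FPKM at D2, AIF1 1.05 at D8 and PTPRC under 0.1, and the skeletal muscle markers ACTA1, CKM and MYOG were all under 1. Of 5 epithelial markers, KRT5 (44.4 to 275 FPKM) and KRT8 (4.46 to 25.1 FPKM) were detected, whereas EPCAM, KRT18 and CDH1 were under 1 in every library. The smooth muscle and myofibroblast markers are given with the elastin results, since most of them were also low at D2 and D4.

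**Figure D1:**
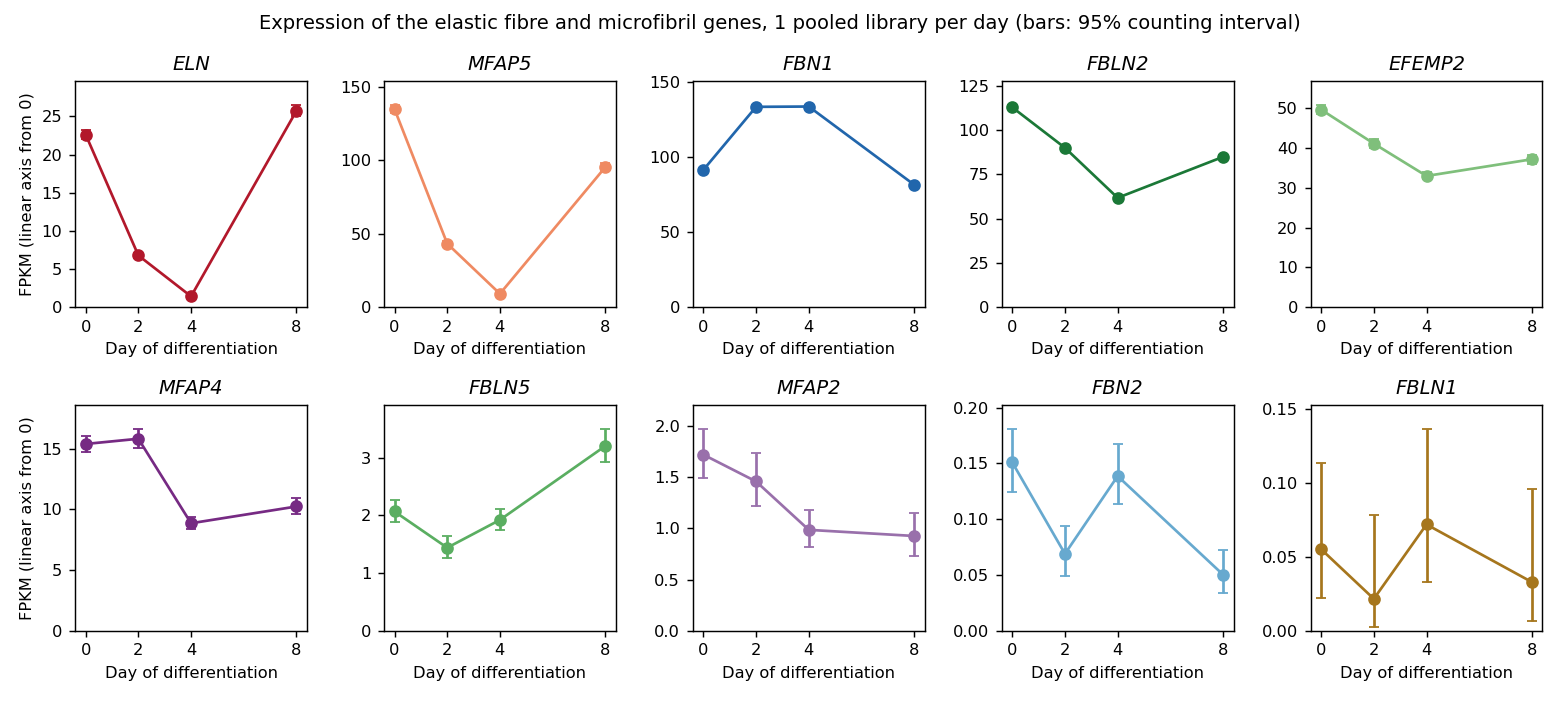
FPKM (linear axes from 0) of each of the 10 genes against the day of differentiation, with 1 point per pooled library and bars for the 95% counting interval. ELN and MFAP5 have their lowest point at D4 and high points at D0 and D8, FBN1 has its high points at D2 and D4, and the bottom right panels show genes below 0.2 FPKM.

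ELN encodes elastin itself (chromosome 3, 11214194 to 11245891, plus strand, in the pig assembly Sscrofa11.1 that the files use). ELN was at 22.6 FPKM at D0 (6037 fragments), 6.77 at D2 (1318 fragments), 1.41 at D4 (370 fragments) and 25.7 at D8 (4930 fragments). The level was thus high before induction, low after the hormone cocktail and lowest at D4, and at D8 it was the highest of the 4 libraries. None of the 4 counting intervals overlapped another (22.1 to 23.2, 6.41 to 7.15, 1.27 to 1.56 and 25.0 to 26.5 FPKM). Among the 9191 reliably expressed mRNAs, ELN stood at percentile 75.4 at D0 and then 46.0, 4.09 and 79.6 at D2, D4 and D8. On the scale of log2(FPKM + 0.01), on which all ratios are given here, ELN fell by 1.74 from D0 to D2 (interval -1.83 to -1.65). It fell by a further 2.26 from D2 to D4 (interval -2.44 to -2.10). From D4 to D8 it then rose by 4.18 (interval 4.04 to 4.35), or 18.3-fold. D8 differed from D0 by 0.19 on this scale (1.14-fold, interval 0.13 to 0.24), under the 2-fold threshold.

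MFAP5 encodes a microfibril-associated glycoprotein, MAGP-2, which binds fibrillin (chromosome 5, 62742520 to 62757522, plus strand). MFAP5 was at 135 FPKM at D0 (10512 fragments), 43.3 at D2 (2458 fragments), 9.09 at D4 (698 fragments) and 95.4 at D8 (5335 fragments). Its order of the libraries differed from that of ELN only at the top, with D0 above D8. MFAP5 fell by 1.64 on the log2 scale from D0 to D2 (interval -1.71 to -1.58) and fell by 2.25 from D2 to D4 (interval -2.37 to -2.13). It rose by 3.39 from D4 to D8 (interval 3.28 to 3.51), or 10.5-fold. At D8 it was 0.50 below D0 (interval -0.55 to -0.45), under the 2-fold threshold. MFAP5 went from percentile 95.2 of reliably expressed mRNAs at D0 to percentile 52.1 at D4 and back to 93.8 at D8.

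All 6 markers of smooth muscle and myofibroblasts were lower at D2 and D4 than at D0, as were ELN and MFAP5. The markers other than MYH11 were also higher at D8 than at D4. The summed level of the 6 markers was 6224 FPKM at D0 and then 666, 511 and 4818 at D2, D4 and D8. Most of this sum came from ACTA2 and TAGLN, which changed less from D2 to D4 than ELN and MFAP5 did. Of the 6 markers, 5 were at an FPKM of at least 1 in all 4 libraries. ACTA2, smooth muscle actin, was at 2907, 324, 225 and 2762 FPKM in that order of days, and TAGLN, an actin-binding protein, at 2767, 297, 277 and 1987 FPKM. DES, the intermediate filament protein desmin, was at 436, 37.7, 4.05 and 35.7 FPKM. CNN1 was at 94.3, 4.22, 2.39 and 24.2 FPKM, and MYL9 at 18.7, 2.72, 2.52 and 7.94 FPKM. DES, CNN1 and MYL9 thus stayed well below D0 at D8. MYH11, the smooth muscle myosin, was under 1 FPKM in every library. It was at 0.633 FPKM at D0 and 0.350 at D2, and lower at D8 (0.289 FPKM) than at D4 (0.341 FPKM). The part of these markers in the levels of ELN and MFAP5 was not tested, and in pooled bulk RNA fewer cells of a type and less RNA per cell cannot be told apart.

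FBN1 encodes fibrillin-1, the main building block of microfibrils (chromosome 1, 123102011 to 123359649, plus strand). FBN1 was at 91.5 FPKM at D0 (65720 fragments), 134 at D2 (69951 fragments), 134 at D4 (94736 fragments) and 81.6 at D8 (42061 fragments). D2 and D4 were the high libraries and D8 the lowest, whereas ELN was low at D2 and D4 and highest at D8. D2 was 0.55 above D0 on the log2 scale (1.46-fold), D4 differed from D2 by 0.00 (interval -0.01 to 0.02), and D8 was 0.71 below D4 (1.64-fold, interval -0.73 to -0.70). No ratio of FBN1 reached 2-fold, although the counting error was small. The sign of the difference between D2 and D4 turned with the scaling, from 0.00 as deposited to -0.08 with median-ratio factors and -0.07 with equal sums of FPKM.

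FBN2 encodes fibrillin-2, the fibrillin best known from embryonic tissue (chromosome 2, 131150665 to 131370241, minus strand). FBN2 was at 0.151 FPKM at D0 (117 fragments), 0.0690 at D2 (39 fragments), 0.139 at D4 (106 fragments) and 0.0503 at D8 (28 fragments). All 4 values were under 1 FPKM, so that FBN2 was not reliably expressed and none of its ratios was counted. Per kilobase, FBN1 exceeded FBN2 by 606-fold at D0, 1936-fold at D2, 965-fold at D4 and 1622-fold at D8. FBN2 was high at D0 and D4 and low at D2, whereas FBN1 was high at D2 and D4.

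The other microfibril-associated genes, MFAP2 and MFAP4, differed from MFAP5. MFAP2 encodes MAGP-1, the close relative of MAGP-2 (chromosome 6, 75607515 to 75615680, minus strand). It was at 1.72 FPKM at D0 (207 fragments), 1.46 at D2 (128 fragments), 0.986 at D4 (117 fragments) and 0.926 at D8 (80 fragments). The intervals at D0 (1.49 to 1.97 FPKM) and D2 (1.22 to 1.73 FPKM) overlapped. MFAP2 was lower at D4 and stayed low at D8, where its interval (0.734 to 1.15 FPKM) overlapped that at D4 (0.815 to 1.18 FPKM). With 2 libraries at or above 1 FPKM, it missed the filter for reliable expression, and its D4 interval spans that limit. The level of MFAP5 was 78.5 times that of MFAP2 at D0, 29.7 times at D2, 9.22 times at D4 and 103 times at D8.

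MFAP4 encodes a secreted fibrinogen-related protein that binds elastin and fibrillin (chromosome 12, 60141488 to 60144214, plus strand). MFAP4 was at 15.4 FPKM at D0 (2066 fragments), 15.8 at D2 (1549 fragments), 8.86 at D4 (1173 fragments) and 10.2 at D8 (987 fragments). D0 and D2 could not be distinguished by counting error (log2 difference 0.04, interval -0.06 to 0.14). D4 was 0.84 below D2 on the log2 scale (1.79-fold), and D8 stayed 0.59 below D0 (1.503-fold), both short of 2-fold. At D4 the intervals of MFAP4 (8.36 to 9.38 FPKM) and MFAP5 (8.43 to 9.79 FPKM) overlapped, whereas at D0 MFAP5 was 8.77 times as high as MFAP4 and at D8 9.32 times. MFAP4 shares 77 bases with MAPK7 on the opposite strand, which was at 1.34 to 3.46 FPKM. Whether the fragments were counted by strand is not given in the sources used here.

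The 4 fibulins differed widely in level. FBLN2 encodes fibulin-2, a matrix protein that binds tropoelastin and fibrillin (chromosome 13, 70757255 to 70830430, minus strand). FBLN2 was at 113 FPKM at D0 (36457 fragments), 90.1 at D2 (21203 fragments), 61.8 at D4 (19666 fragments) and 85.0 at D8 (19684 fragments). D0 was highest and D4 lowest, the same turning point as in ELN, but the D4 level was 0.87 below D0 on the log2 scale (1.83-fold) and the D8 level 0.46 above D4 (1.38-fold), both short of 2-fold.

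EFEMP2 encodes fibulin-4, which is needed for elastic fibres to form and brings lysyl oxidase to tropoelastin (chromosome 2, 6455155 to 6463493, plus strand). EFEMP2 was at 49.7 FPKM at D0 (8065 fragments), 41.2 at D2 (4871 fragments), 33.0 at D4 (5282 fragments) and 37.2 at D8 (4335 fragments). Its highest and lowest libraries were those of FBLN2, and its range, 1.51-fold, was the narrowest of the 10 genes. FBLN2 was 2.27 times as high as EFEMP2 at D0, 2.19 times at D2, 1.87 times at D4 and 2.28 times at D8. EFEMP2 shares 669 bases with MUS81 on the opposite strand, which was at 2.12 to 3.08 FPKM.

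FBLN5 encodes fibulin-5, which ties tropoelastin to microfibrils and to integrins on cells (chromosome 7, 113423629 to 113526412, minus strand). FBLN5 was at 2.07 FPKM at D0 (445 fragments), 1.44 at D2 (226 fragments), 1.92 at D4 (408 fragments) and 3.20 at D8 (495 fragments). It was lowest at D2 rather than at D4 and highest at D8. D8 was 0.73 above D4 on the log2 scale (interval 0.54 to 0.93) and 0.63 above D0 (interval 0.44 to 0.82), both short of 2-fold. FBLN5 overlaps TRIP11 on the same strand by 2007 bases, and TRIP11 was at 8.43, 10.6, 10.9 and 7.91 FPKM at D0, D2, D4 and D8, so that reads of the shared stretch cannot be assigned with certainty. FBLN1, which encodes fibulin-1 (chromosome 5, 3839498 to 3927178, minus strand), was barely detected. It had 7 fragments at D0 and then 2, 9 and 3 at D2, D4 and D8, or 0.0552, 0.0216, 0.0719 and 0.0329 FPKM, and these fragments cannot rank the 4 libraries.

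In the order of levels at D0, MFAP5 was followed by FBLN2, FBN1, EFEMP2, ELN, MFAP4, FBLN5, MFAP2, FBN2 and FBLN1. The intervals of neighbours in this order overlapped only for FBLN5 and MFAP2. At D2 and D4, FBN1 stood first and FBLN2 second. At D2 the intervals of MFAP5 and EFEMP2 overlapped, as did those of FBLN5 and MFAP2, and from D2 on those of FBN2 and FBLN1 did too. At D8 the order of D0 returned for all 10 genes.

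For each comparison, an mRNA was counted where it was reliably expressed and differed at least 2-fold. The 5 comparisons share libraries and are not independent of each other. From D0 to D2, 0 of the 7 reliably expressed genes were higher and 2 were lower, ELN and MFAP5. Over all 9191 reliably expressed mRNAs, 6.67% were higher and 10.1% lower (8.26% and 8.65% with equal sums of FPKM). From D2 to D4, 0 were higher and the same 2 were lower, while 4.24% of all mRNAs were higher and 0.838% lower. From D4 to D8, 2 were higher, again ELN and MFAP5, and 0 lower, beside 4.43% of all mRNAs higher and 10.1% lower (6.27% and 6.08% with median-ratio scaling). At D4 against D0, 0 were higher and 2 lower (ELN by 16.1-fold and MFAP5 by 14.9-fold), beside 10.4% of all mRNAs higher and 8.81% lower. At D8 against D0, 0 were higher and 0 lower, beside 3.6% of all mRNAs higher and 3.68% lower (4.42% and 2.22% with median-ratio scaling). These counts rest on 2 genes out of 7, and nothing particular to the list is read from them.

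**Figure D2:**
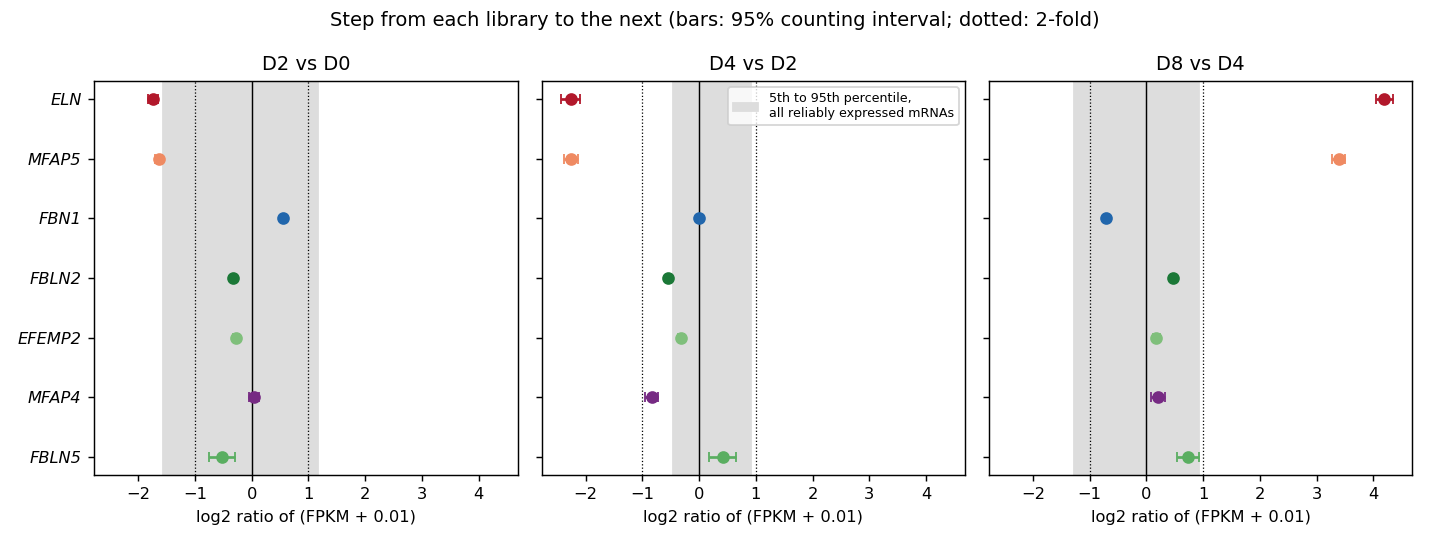
Difference of log2(FPKM + 0.01) from each library to the next for the 7 reliably expressed genes, with bars for the 95% counting interval, dotted lines at 2-fold and grey bands from the 5th to the 95th percentile of all 9191 reliably expressed mRNAs. ELN and MFAP5 lie outside the grey band in all 3 panels, MFAP4 and FBLN2 lie below it at D4 vs D2, and all genes but ELN and MFAP5 lie between the dotted lines.

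The median log2 difference of the 7 genes was -0.33 for D2 vs D0, -0.54 for D4 vs D2, 0.46 for D8 vs D4, -0.80 for D4 vs D0 and -0.41 for D8 vs D0. The medians of all reliably expressed mRNAs were -0.03, 0.09, -0.21, 0.06 and -0.18 in the same order. With the 3 genes of low level included, the medians of the 10 genes were -0.42, -0.43, 0.19, -0.69 and -0.46. From D4 to D8, 6 of the 7 genes were above 0 and FBN1 was below it. From D0 to D4, 6 of the 7 genes were below 0 and FBN1 was above it, but the interval of FBLN5 included 0 (-0.10, interval -0.30 to 0.09). The shares of all mRNAs above and below 0 are not given here, and nothing particular to the list is read from these counts. Median-ratio scaling shifted the median of all mRNAs by 0.20 for D8 vs D4 and by 0.16 for D8 vs D0, and scaling to equal sums of FPKM shifted it by 0.11 for D2 vs D0, and the counts of the 7 genes stayed as they were.

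Since FPKM is per kilobase, the mix of the 10 transcripts could be followed within each library, where scaling between libraries plays no part. FBN1 made up 21.2% of their summed FPKM at D0 and then 40.03%, 53.3% and 24.0% at D2, D4 and D8. MFAP5 made up 31.3%, 13.0%, 3.62% and 28.1%. FBLN2 held between 24.6% and 27.0% in all 4 libraries. At D2 and D4, FBN1 thus held the largest share, and at D0 and D8 MFAP5 did.

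Against FBN1 of the same library, ELN was at 24.7% at D0 and then 5.07%, 1.05% and 31.5% at D2, D4 and D8. MFAP5 was at 147%, 32.4%, 6.79% and 117% of FBN1. FBLN2 was at 123%, 67.5%, 46.2% and 104% of FBN1. All 6 of the other reliably expressed genes had a lower ratio to FBN1 at D2 and at D4 than at D0 and at D8, and all 6 ratios share the level of FBN1. The ratio of MFAP5 to ELN was 5.97 at D0, 6.39 at D2 and 6.46 at D4, and it was 3.71 at D8, where ELN was above its level at D0 and MFAP5 below.

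**Figure D3:**
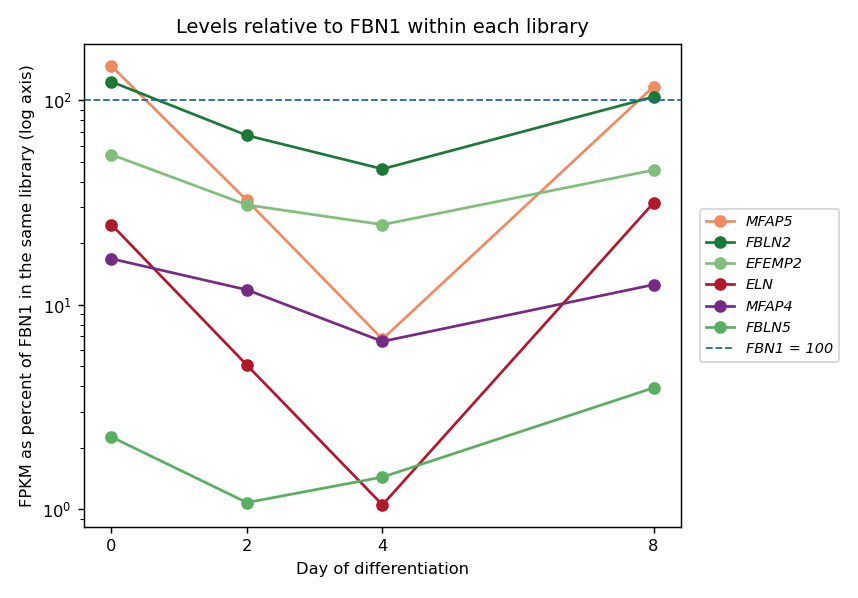
FPKM of 6 genes as a percent of FBN1 in the same library (log axis) against the day of differentiation, with 1 point per pooled library and a dashed line where a gene equals FBN1. Each line is lower at D2 and D4 than at D0 and D8, and ELN covers the widest range, from 1.05% at D4 to 31.5% at D8.

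To find the mRNAs whose pattern over the 4 libraries was most like that of each gene, the log2 values were centred on their own mean and the largest difference at any day was taken, over 4080 other mRNAs with a mean FPKM of at least 10. With 4 libraries this is a description of shape, and no function is read from it. MFAP5 had 1 mRNA within 0.5, S100A4, which encodes a small calcium-binding protein. S100A4 differed from it by 0.12 and was at 87.5, 28.1, 6.598 and 62.9 FPKM at D0, D2, D4 and D8. The next were C5H12orf75 (0.66) and TPM2, a tropomyosin of actin filaments (0.68). ELN had 0 mRNAs within 0.5. Its nearest were S100A4 (0.59), RAMP1, an accessory protein of calcitonin-family receptors (0.79), and C5H12orf75 (0.89), and of these S100A4 alone stayed among its 3 nearest by Euclidean distance. Among the 10 genes, ELN and MFAP5 were each other's nearest (0.57).

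More mRNAs lay near the other reliably expressed genes. FBN1 had 2072 of the 4080 mRNAs within 0.5, EFEMP2 2364, FBLN2 1618, MFAP4 1080 and FBLN5 345. Nearest to FBN1 were TRMT1, NUBP2 and DNAJA3, and nearest to FBLN2 were TMEM126A, GOLT1B and METTL9. Nearest to EFEMP2 were GTF2A2, CACNA2D1 and RAB43, to MFAP4 CALM2, DUSP1 and CHRDL1, and to FBLN5 RPUSD3, LOC574051 and PRSS23. Of the genes of low level, MFAP2 was nearest to DUSP1, MAPK9 and CALM2, and FBN2 to BASP1, HSPH1 and FZD7. MFAP2 had 1355 mRNAs within 0.5, FBN2 58 and FBLN1 57. MFAP2 and MFAP4 were each other's nearest among the 10 genes (0.16), and so were FBLN2 and EFEMP2 (0.20).

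ELN and MFAP5 were lower by at least 2-fold at both of the first steps and higher by at least 2-fold at the last. This criterion was chosen after their values were seen. Over all 9191 reliably expressed mRNAs, 23 met it, or 0.25%. Besides ELN and MFAP5, the 23 included LOXL3 and LOXL4, of the lysyl oxidase family, COL11A1, a minor fibrillar collagen, S100A4, and the smooth muscle genes ACTG2 and DES. Of the 6 smooth muscle and myofibroblast markers above, DES was the only 1 among the 23. Others of the 23 were INHBE, GDF15, SFRP4, SPP1, IL33, UCHL1 and CHD5, and no theme is read from the list. COL11A1 was at 6.65, 2.46, 0.529 and 44.1 FPKM at D0, D2, D4 and D8, and ACTG2 at 562, 41.9, 12.02 and 315 FPKM. In 4 of the 23, ELN among them, D8 was above D0.

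The other genes of elastic fibre assembly and breakdown were taken from a list of 55, of which 52 were found and 36 were reliably expressed. From D0 to D2, 5 of the 36 were higher and 6 lower (median log2 difference 0.16), and from D2 to D4, 2 were higher and 3 lower (0.21). From D4 to D8, 3 were higher and 7 lower (-0.43). At D4 against D0, 8 were higher and 5 lower (0.23), and at D8 against D0, 3 were higher and 6 lower (-0.11). With median-ratio scaling the counts were 5 higher and 4 lower from D4 to D8, and 4 higher and 5 lower at D8 against D0, where the median turned to 0.05. Beside these stand the shares of all mRNAs given above, for D2 vs D0 6.67% higher and 10.1% lower, for D4 vs D2 4.24% and 0.838%, for D8 vs D4 4.43% and 10.1%, for D4 vs D0 10.4% and 8.81%, and for D8 vs D0 3.6% and 3.68%. The genes of this list went in several directions and are described by their roles.

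The cross-linking group held both patterns (7 of 8 genes reliably expressed). LOX, the lysyl oxidase that joins elastin and collagen chains, was at 56.8 FPKM at D0 and then 51.5, 44.5 and 64.6 at D2, D4 and D8, with no ratio of 2-fold. LOXL4 was at 46.3, 14.9, 4.01 and 16.7 FPKM, and its log2 differences were -1.64 for D2 vs D0, -1.89 for D4 vs D2 and 2.05 for D8 vs D4. LOXL3 was at 3.43, 1.34, 0.521 and 1.24 FPKM, low at D4 as well. Unlike ELN, both stayed below D0 at D8, LOXL4 by a log2 difference of -1.47 and LOXL3 by -1.46. LOXL2 went the other way, from 111 FPKM at D0 to 277 at D4 (log2 difference 1.32). LOXL1, the family member most closely tied to elastin, was at 13.9 FPKM at D0 and 6.997 at D2, a log2 difference of -0.99 that just missed 2-fold.

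Of the enzymes that cut elastin, MMP2 and MMP14 were high on the days when ELN was low. MMP2, a gelatinase, was at 99.3 FPKM at D0 and then 371, 481 and 96.8 at D2, D4 and D8, and MMP14, the membrane protease that activates MMP2, at 125, 271, 288 and 86.9 FPKM. Both were higher at D2 and at D4 than at D0 and lower at D8 than at D4, in each case by at least 2-fold. MMP9, the other gelatinase, was at 4.15, 7.51, 3.89 and 1.48 FPKM and fell by 1.39 on the log2 scale from D4 to D8. Of the 6 reliably expressed enzymes of this group, 2 were higher at D2 vs D0 (beside 6.67% of all mRNAs), 0 passed at D4 vs D2, and 3 were lower at D8 vs D4 (beside 10.1% of all mRNAs). At D4 vs D2, MMP9 just missed 2-fold as deposited (-0.95) and passed with both other scalings (-1.03 and -1.02). CTSK, CTSL and CTSV, lysosomal cathepsins that can cut elastin, showed 1 ratio of 2-fold among them, that of CTSL at D8 vs D0 (-1.14), which was -0.99 with median-ratio scaling. CTSL and CTSV belong to 1 cathepsin family, and whether they share reads was not tested.

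In the elastin receptor complex, NEU1, its sialidase, was at 5.27 FPKM at D0 and then 12.6, 12.2 and 7.16 at D2, D4 and D8. It was the 1 of the 3 genes called higher at D2 vs D0 (beside 6.67% of all mRNAs). CTSA, the protective protein of that complex, was lower at D8 vs D4 (log2 difference -1.04), a call lost with median-ratio scaling (-0.84).

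Among the relatives of the fibrillins, 2 of 4 latent TGF-beta binding proteins were reliably expressed. LTBP2, which binds fibrillin-1 and fibulin-5, was at 15.7 FPKM at D0 and then 5.88, 2.09 and 3.42 at D2, D4 and D8. It fell by 1.41 on the log2 scale to D2 and by a further 1.49 to D4, as ELN did, but was only 0.71 higher at D8 than at D4 and remained 2.19 below D0. LTBP1, which anchors latent TGF-beta to microfibrils, was at 100.2 FPKM at D0 and then 114, 74.5 and 69.0 at D2, D4 and D8, with no ratio of 2-fold. Of the other fibulins, FBLN7 was at 1.43 FPKM at D0 and then 1.52, 3.28 and 3.42 at D2, D4 and D8. EFEMP1, fibulin-3, was at 2.09 FPKM at D0 and 7.41 at D8, a log2 difference of 1.82. FBLN5 and each of these had their highest value at D8, although FBLN7 was nearly as high at D4.

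EMILIN1, a glycoprotein at the surface of elastic fibres, was at 26.5 FPKM at D0 and then 18.6, 25.5 and 15.8 at D2, D4 and D8, without a 2-fold ratio. Its relative EMILIN2 was at 22.5, 68.7, 44.0 and 13.6 FPKM, higher at D2 (log2 difference 1.61) and lower from D4 to D8 (-1.69). ADAMTS6, a protease of the group that acts on microfibrils, was at 7.05 FPKM at D0 and then 1.45, 1.30 and 2.78 at D2, D4 and D8. It rose by 1.08 on the log2 scale from D4 to D8. Of the 4 reliably expressed genes of fibrillin processing it was the one called lower at D2 vs D0 (-2.28), beside 10.1% of all mRNAs.

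The scaffold and receptor group was reliably expressed in full (9 of 9). FN1, fibronectin, on which microfibrils are first laid down, was at 162 FPKM at D0 and then 202, 229 and 382 at D2, D4 and D8, and was called at D8 vs D0 (log2 difference 1.24). VCAN, the proteoglycan versican that binds fibrillin, was at 27.1, 55.2, 110 and 52.3 FPKM. Its log2 difference at D4 vs D0 was 2.02, and that at D8 vs D4, -1.07, was -0.87 with median-ratio scaling. At D8 vs D0 VCAN was 0.94 higher, or 1.103 with median-ratio scaling. ITGB1, an integrin subunit of fibronectin receptors, was at 319, 126, 104 and 207 FPKM, lower at D2 vs D0 (-1.34) and 0.99 higher at D8 than at D4, or 1.19 with median-ratio scaling. ITGB3, another integrin subunit, was at 4.42, 1.93, 4.64 and 3.03 FPKM, with its low point at D2, the low day of FBLN5.

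**Figure D4:**
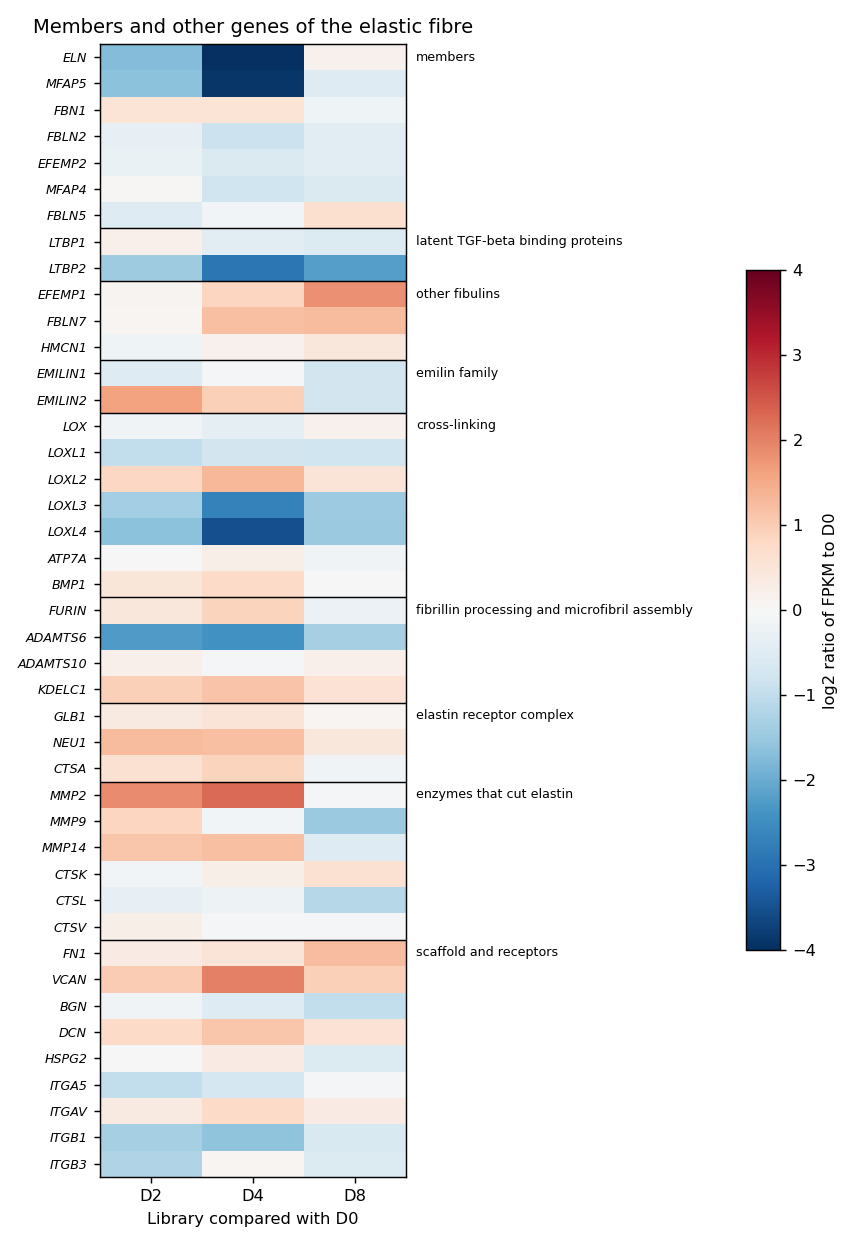
Log2 difference of D2, D4 and D8 from D0 (columns) for the 7 reliably expressed fibre genes and the 36 other genes of elastic fibre assembly and breakdown (rows, by group), in blue where lower and red where higher than D0. ELN, MFAP5, LOXL4, LTBP2 and LOXL3 are dark blue at D4, and MMP2 and VCAN are red at D4.

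The same loci were also read out as circRNAs, which are closed by back-splicing and were counted by the reads over their junction. SRPBM is junction reads scaled by the reads mapped in the library, and 1 junction read was worth 5.94 to 8.401 SRPBM. A circRNA was assigned to a gene where both of its ends lay in the gene on the same strand. Of the 10 genes, 3 had a listed circRNA and 7 had none, and there were 4 circRNAs in all. Neither ELN nor MFAP5 was among the hosts. Since circRNAs with fewer than 2 junction reads were not listed by the authors, a value of 0 means that fewer than 2 junction reads were found.

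From FBLN2, ssc_circ_0006621 (chromosome 13, 70778196 to 70779817, spanning 1622 bases) had 78 junction reads at D0 and then 75, 38 and 34 at D2, D4 and D8, or 501, 545, 226 and 286 SRPBM. D0 and D2 were high, and D4 and D8 low. The SRPBM at D4 was lower than at D2 by a log2 difference of -1.27 (interval -1.88 to -0.69) and than at D0 by -1.15 (interval -1.75 to -0.57). D8 did not differ from D4 beyond counting error (0.34, interval -0.37 to 1.05). Per 1000 fragments of FBLN2, there were 2.14 junction reads at D0 (interval 1.69 to 2.67), 3.54 at D2 (2.78 to 4.43), 1.93 at D4 (1.37 to 2.65) and 1.73 at D8 (1.20 to 2.41). The interval at D2 overlapped none of the other 3. Per counted fragment of its host, the circRNA was therefore highest at D2, by a log2 difference of 0.73 from D0 (interval 0.25 to 1.20). Its SRPBM differed between D2 and D0 by only 0.12 (interval -0.35 to 0.60), and the FBLN2 level at D2 was 0.33 below D0. SRPBM and FPKM were scaled by different library totals. The fragments behind FPKM were 75387428 at D0 and 54987801 at D2, while 1 junction read was worth 6.42 and 7.27 SRPBM. How far D2 stood above D0 per host transcript, and whether beyond counting error, thus depends on the totals used. Which total is apt was not tested.

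**Figure D5:**
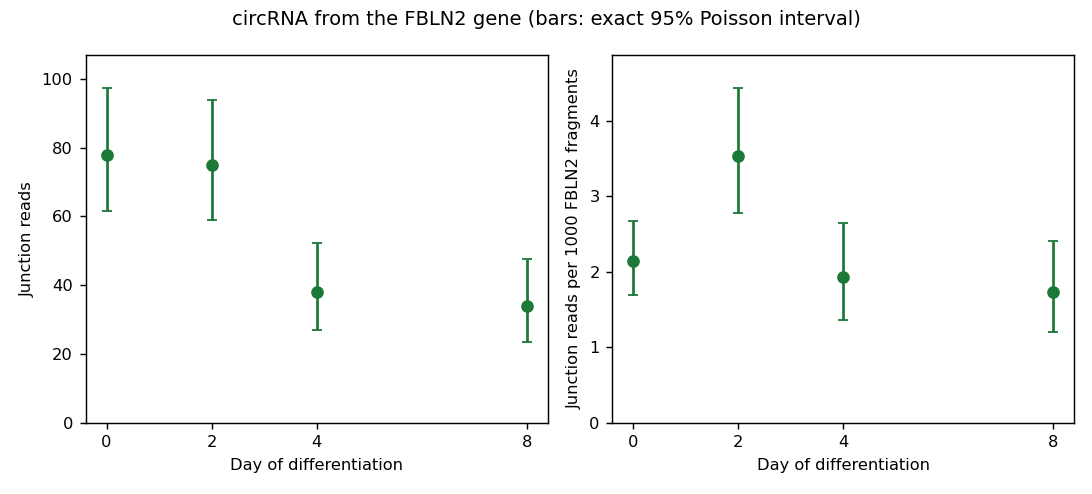
Junction reads of the FBLN2 circRNA (left) and junction reads per 1000 FBLN2 fragments (right) against the day of differentiation, with 1 point per pooled library and bars for the exact 95% Poisson interval of the junction reads. Reads are 78 and 75 at D0 and D2 against 38 and 34 at D4 and D8, and the share per host fragment has its high point, 3.54, at D2.

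The other 3 circRNAs rested on few reads. From FBN1, ssc_circ_0000121 (chromosome 1, 123132961 to 123158067) had 8 junction reads at D0 and then 0, 0 and 4 at D2, D4 and D8. Also from FBN1, ssc_circ_0000122 (chromosome 1, 123323801 to 123330654) had 5, 0, 17 and 4 reads. At D2, where FBN1 had 69951 fragments, neither FBN1 circRNA was listed. From FBLN5, ssc_circ_0003595 (chromosome 7, 113433273 to 113438609) had 8 reads at D4 and 0 in the other 3 libraries. For ssc_circ_0000122, D4 exceeded D0 by a log2 difference of 1.65 in SRPBM (interval 0.16 to 3.45), and its ratio per host fragment had an interval that included 0 (1.24, interval -0.26 to 3.03).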

How the data were processed

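Total RNA from 4 stages was sequenced without ribosomal RNA. Per the labels and the study's methods, the authors aligned reads to the pig genome with HISAT2 2.0.5, found circRNAs with BWA-MEM and CIRI (at least 2 junction reads), and deposited 1 column per library that holds FPKM for 22944 genes and SRPBM, a scaled signal, for 8623 circRNAs. The counting tool and its strand setting are not given in the sources used here. Whole fragments were recovered from the deposited FPKM values alone for 22938 genes, with the library sizes estimated from the same values. They are the smallest whole numbers that fit the 4 values after scaling by library size and that also give a whole transcript length. Where the true numbers share a factor that a whole length does not settle, these are too small and the intervals too wide. Intervals are exact Poisson for levels and Clopper-Pearson for ratios. The filter and the 2-fold threshold follow the study's methods, the pseudocount was 0.01, and the authors' FDR was left out. The text names all 10 genes, those of the list of 55 that reached 2-fold in at least 2 comparisons, LOX, LTBP1, EMILIN1 and FN1, and the 3 mRNAs nearest in pattern, which are not reported here for FBLN1. LOXL1, LOXL2, EFEMP1, CTSA and the cathepsins were added after their values were seen. The genes of low level named under Other observations also lie outside this rule. The genes and lists were chosen with earlier results of these data known. Alternatives were other pseudocounts, filters, scalings and thresholds. Python 3.11.15 with numpy 2.4.6, pandas 2.3.3 and scipy 1.17.1 was used, and the recovery was tested on simulated data. No sequence of these genes was read here.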

Additional observations from a re-analysis of the deposited data

How the results depend on the processing

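No paired analysis was possible because each stage had 1 pooled library. The counts of fibre genes at least 2-fold different, which were 2 in each of the 3 steps between neighbouring days, 2 for D4 against D0 and 0 for D8 against D0, kept their values with pseudocounts of 0.1 or 1, with both other scalings, with a ratio of at least 3 and with a filter on all 4 libraries. Without the filter on low FPKM they were 4 for D2 vs D0, 3 for D4 vs D2, 3 for D8 vs D4, 2 for D4 vs D0 and 1 for D8 vs D0, with FBLN1 added as higher at D4 vs D2 and FBN2 as lower at D8 vs D4. With a ratio of at least 1.5 they were 4 for D8 vs D4, 5 for D4 vs D0 and 2 for D8 vs D0. For the other genes of the pathway, the counts of 11, 5, 10, 13 and 9 (the 3 steps, then D4 and D8 against D0) became 19, 9, 18, 23 and 14 without the filter, 18, 10, 22, 21 and 17 at a ratio of at least 1.5, and 4, 1, 4, 7 and 2 at a ratio of at least 3. With a pseudocount of 1 they were 2 for D4 vs D2 and 5 for D8 vs D4. The shares of all mRNAs called with the other pseudocounts, filters and thresholds are not given here. The counts of both lists therefore show only how the calls depend on the setting. The 23 mRNAs with 2 lower steps and 1 higher step became 22 with a pseudocount of 0.1, 12 with a pseudocount of 1, 14 with a filter on all 4 libraries, 123 without a filter, 26 with median-ratio scaling and 23 with equal sums. A pseudocount of 1 brought the log2 difference of ELN at D8 vs D4 from 4.18 to 3.47, and median-ratio scaling raised it to 4.38. The median of the 7 fibre genes at D8 vs D4 was 0.66 with median-ratio scaling. Of the 35 log2 differences of the 7 genes, 20 moved beyond their counting interval with median-ratio scaling, 13 with equal sums and 7 with a pseudocount of 1. Scaling by the total of junction reads left all 5 ratios of the FBLN2 circRNA within their intervals. Depth limited FBLN1, at 2 to 9 fragments, and the circRNAs of FBN1 and FBLN5.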

Other observations

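Several partners of elastic fibres were listed at levels too low to be counted. LTBP4, which works with fibulin-5 in elastin assembly, was at 0.554 FPKM at D0 and then 0.234, 0.299 and 0.163 at D2, D4 and D8, and LTBP3 was between 0.321 and 0.860 FPKM. THSD4 (ADAMTSL6), a microfibril protein, was at 1.01, 0.576, 0.413 and 0.765 FPKM. ADAMTSL3 was at 1.31 FPKM at D0 and between 0.210 and 0.399 FPKM in the other 3 libraries. EMILIN3 was at 0.0577, 0.500, 0.527 and 0.0201 FPKM, so that its 2 higher libraries were those in which EMILIN2 was also highest. Elastases of immune cells were at or near 0, with MMP12, the macrophage elastase, at 0.227 FPKM at D0, 0.0527 at D8 and listed at 0 at D2 and D4, and PRTN3 at 0.0141 FPKM or listed at 0. CTSS, the cathepsin of antigen-presenting cells, was at 1.26, 0.722, 0.431 and 1.35 FPKM. These genes entered only the counts made without a filter on low FPKM.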
